A study of Rattus norvegicus with 15 samples.

Results

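Livers of rats given the acetyl-CoA carboxylase inhibitor PF-04923503 were compared with livers of rats given vehicle, with both doses of the inhibitor taken as a single treated group. All 15 arrays of the study entered: 10 treated arrays (5 at 10 mg/kg and 5 at 30 mg/kg) and 5 vehicle arrays, chosen by the group named in the sample titles. The animals were male Sprague Dawley rats from Charles River, 7 weeks old at the start. Rats of every group were fed a high fat diet, in which fat supplied 59% of the energy. Dosing was by oral gavage once a day over 6 weeks, and controls received 0.5% methylcellulose alone. All groups shared the diet and the gavage, so the comparison describes the inhibitor on a high fat background only. Samples carry a number within their group, but nothing in the labels ties each number to a separate rat, and the p-values therefore reflect only how these samples vary, which may be technical. Pooling the doses asks which hepatic transcripts differed from vehicle on average over the 10 treated arrays, and which separated every treated array from every vehicle array. The pooled test does not ask whether each dose differs by itself or whether the doses act alike.

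Acetyl-CoA carboxylase makes malonyl-CoA, the building block of fatty acid synthesis in the cytosol and the molecule that holds back the entry of fatty acids into mitochondria for oxidation. Acaca encodes the cytosolic form and Acacb the form at the mitochondrial surface. In the liver, transcripts of the lipogenic enzymes are known to follow the factors SREBP-1c, ChREBP and LXR, which respond to insulin, sugar and sterols, while polyunsaturated fatty acids lower them. Desaturases and elongases then shape the acyl chains that are stored in triglyceride or built into membranes.

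Each gene was read by 1 or more probe sets on a 3′ expression array of the rat, and the values are log2 intensities that the authors had normalised between arrays. Array medians lay between 6.08 and 6.12 and pairwise correlations between 0.989 and 0.996. The liver markers stood high on every array: the mean log2 level of 12 hepatocyte markers ran from 13.86 to 13.98 in vehicle, from 13.92 to 14.01 at 10 mg/kg and from 13.91 to 13.99 at 30 mg/kg. RNA quality, read as the 3′ minus 5′ log2 signal of the Gapdh control, averaged 0.394 ± 0.0321 (SD, n = 5) in vehicle and 0.352 ± 0.0616 (SD, n = 10) in treated arrays (exact two-sided permutation test, p = 0.185, adjusted over 3 controls 0.555). The actin and hexokinase controls gave permutation p = 0.769 and 0.611. These are bulk livers, in which fewer cells of a type and less RNA per cell cannot be told apart.

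Of 20826 named probe sets, 15 (0.072%) differed between treated and vehicle arrays at a limma p-value below 0.05 after Benjamini-Hochberg adjustment, and such probe sets are called here. They belong to 13 genes. Tfrc, Slc13a3, Slc13a4, Masp2, Gprc5c, Tia1, Psen2 and Mpst fell in 9 probe sets (0.0432%). Dpt, Tgoln2, Fads1, Ptprv and Scd rose in 6 (0.0288%). In 13 of the 15 all 10 treated arrays lay on one side of all 5 vehicle arrays, and the exceptions were Scd and the dimmer of the Dpt probe sets. Without adjustment, 3004 probe sets (14.4%) had a p below 0.05, 1314 higher (6.31%) and 1690 lower (8.11%) in treated arrays. For lists of genes, the brightest probe set of each of 14217 genes was counted. The adjusted p-values of the calls lay between 0.0109 and 0.0435, so none stood far from the threshold.

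**Figure D1:**
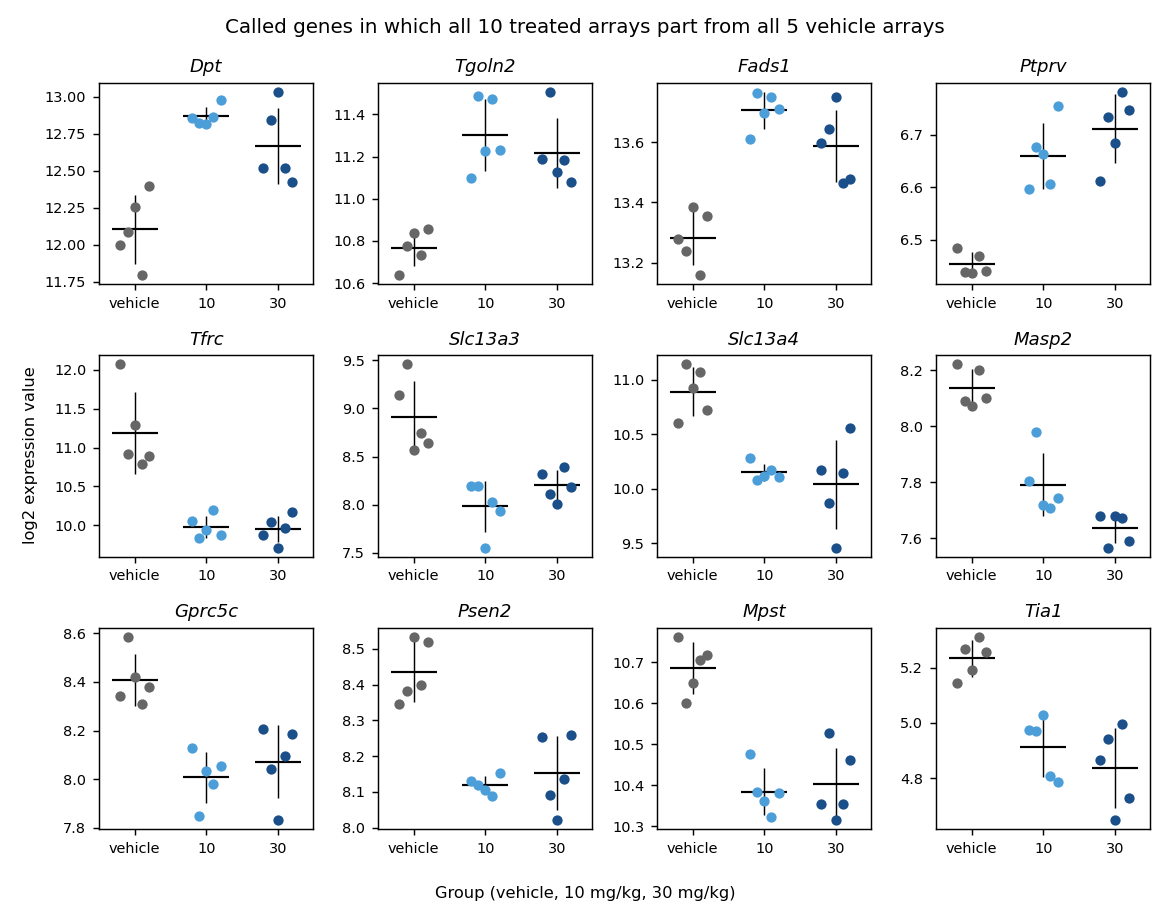
Log2 expression value (y axis, a separate range for each gene) of the 12 called genes in which treated and vehicle arrays did not overlap, by group (x axis: vehicle, 10 mg/kg, 30 mg/kg; n = 5 each). Points are arrays, horizontal lines are group means and vertical lines are 1 SD; in Tfrc the lowest vehicle array stood at 10.78 and the highest treated array at 10.19, the widest gap of the panels.

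The widest separation belonged to Tfrc, the transferrin receptor through which cells take up iron. Its brighter probe set read 12.07, 10.91, 11.29, 10.78 and 10.89 in the vehicle arrays. At 10 mg/kg it read 10.05, 9.84, 9.94, 10.19 and 9.87, and at 30 mg/kg 9.88, 10.04, 9.71, 9.97 and 10.17. Every treated array lay at least 0.59 below every vehicle array. The SD was 0.15 in treated and 0.53 in vehicle arrays, where sample 1 at 12.07 stood apart from the others at 10.78 to 11.29. Tfrc fell by 1.22 on the log2 scale (95% confidence interval -1.55 to -0.89, adjusted p = 0.0109), which makes vehicle 2.34-fold higher. The other probe set of the gene fell by 1.33 (adjusted p = 0.0120). Both kept their call in each of the 15 fits that left out 1 array, the only genes' probe sets to do so among the 15 called. Vehicle sample 1 held the highest Tfrc value of all arrays.

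The other genes of iron handling did not share the fall of Tfrc. Of 19 measured genes for iron uptake, storage and hepcidin control, Tfrc was the only call (0.0844% of all genes were called and 0.0492% were called lower). The 19 genes had a median log2 difference of -0.01, against -0.0012 over the brightest probe sets of all 14217 genes. Tfr2, the second transferrin receptor, differed by -0.07, Slc40a1, the iron exporter ferroportin, by -0.08, and Slc11a2, the divalent metal transporter, by -0.04. Ireb2 and Aco1, the proteins that bind iron-responsive elements of mRNAs such as that of Tfrc, differed by -0.01 and 0.08. Hamp, which encodes the iron hormone hepcidin, split the vehicle group: it read 6.37, 8.92, 8.42, 13.34 and 13.18 there, 13.85, 13.70, 13.30, 13.93 and 13.77 at 10 mg/kg, and 13.84, 12.99, 13.56, 13.87 and 13.12 at 30 mg/kg. Vehicle samples 4 and 5 thus stood at the treated level and samples 1, 2 and 3 far below it. The mean difference of 3.55 was not called (limma adjusted p = 0.104). Of 23 alternative fits, only the one without vehicle sample 5 called Hamp (limma adjusted p = 0.0279), and the other 22 did not.

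The RefSeq promoter of Tfrc (GRCr8, chr11:81690269-81690568, minus strand, 250 bases before to 50 after the start site) is shown because this gene gave the clearest separation. Capitals mark its CCAAT box, the pentamer bound by NF-Y, at position -153 from the start site.
Tfrc: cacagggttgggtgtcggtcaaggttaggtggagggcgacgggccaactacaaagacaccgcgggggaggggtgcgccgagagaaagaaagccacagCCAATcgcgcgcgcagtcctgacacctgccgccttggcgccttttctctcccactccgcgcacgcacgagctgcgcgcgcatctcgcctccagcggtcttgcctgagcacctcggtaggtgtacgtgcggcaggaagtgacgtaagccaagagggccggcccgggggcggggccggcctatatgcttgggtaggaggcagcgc

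After Tfrc, the largest falls among called genes were those of a pair of sodium-coupled carriers of the Slc13 family. Slc13a3, the carrier of succinate and other dicarboxylates, read 9.14, 9.46, 8.57, 8.74 and 8.64 in vehicle, 8.19, 8.19, 7.55, 8.03 and 7.94 at 10 mg/kg, and 8.32, 8.11, 8.0, 8.40 and 8.19 at 30 mg/kg. It fell by 0.82 (-1.12 to -0.52, adjusted p = 0.0370), with vehicle 1.76-fold higher. Slc13a4, a sulfate carrier, read 10.60, 11.14, 10.92, 11.07 and 10.72 in vehicle, 10.28, 10.08, 10.12, 10.17 and 10.11 at 10 mg/kg, and 10.17, 9.87, 9.46, 10.14 and 10.56 at 30 mg/kg. In this gene 30 mg/kg sample 5, at 10.56, came close to vehicle sample 1 at 10.60. Slc13a4 fell by 0.80 (-1.08 to -0.52, adjusted p = 0.0290), with vehicle 1.74-fold higher. The relatives Slc13a2, a dicarboxylate carrier, and Slc13a5, the citrate carrier that feeds lipogenesis, both differed by 0.09 and were not called. Of 19 measured solute carriers of hepatocytes, Slc13a3 and Slc13a4 were called, where 0.0492% of all genes were called lower, and the median difference was -0.01.

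The promoter of Slc13a4 (RefSeq, GRCr8, chr4:64955937-64956236, minus strand) is printed because it holds more CCAAT boxes than that of any other gene shown, at -146, -118 and -46, all in capitals and the latter pair on the reverse strand.
Slc13a4: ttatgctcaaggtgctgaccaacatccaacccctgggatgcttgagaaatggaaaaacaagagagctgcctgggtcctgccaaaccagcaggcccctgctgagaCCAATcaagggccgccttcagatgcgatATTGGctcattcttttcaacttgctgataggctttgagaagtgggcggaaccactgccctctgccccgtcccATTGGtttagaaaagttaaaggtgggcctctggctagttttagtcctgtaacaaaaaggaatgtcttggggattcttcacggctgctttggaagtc

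Mpst, the mercaptopyruvate sulfurtransferase that makes hydrogen sulfide from cysteine, was bright and tight. Vehicle arrays read 10.76, 10.60, 10.65, 10.70 and 10.72, the 10 mg/kg arrays 10.48, 10.38, 10.36, 10.32 and 10.38, and the 30 mg/kg arrays 10.36, 10.53, 10.32, 10.35 and 10.46. Mpst fell by 0.29 (-0.39 to -0.20, adjusted p = 0.0268), with vehicle 1.22-fold higher. It was the only call among 17 measured genes of cysteine, methionine and sulfur metabolism (0.0492% of all genes were called lower), whose median was -0.04. Cth and Cbs, which make cysteine from methionine, differed by -0.04 and 0.01, and Tst, the rhodanese next to Mpst in sulfur transfer, by -0.09.

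Masp2, a serine protease of the lectin pathway of complement, fell by 0.42 (-0.55 to -0.30, adjusted p = 0.0120), with vehicle 1.34-fold higher. Vehicle arrays read 8.22, 8.09, 8.07, 8.20 and 8.10. The 10 mg/kg arrays read 7.80, 7.98, 7.72, 7.71 and 7.74 and the 30 mg/kg arrays 7.68, 7.57, 7.68, 7.67 and 7.59, so that the groups did not overlap and all of the 30 mg/kg arrays lay below all of the 10 mg/kg arrays. The difference of the 30 mg/kg mean from the 10 mg/kg mean was -0.15 (95% interval -0.28 to -0.03), and it did not pass the test over all probe sets (limma adjusted p = 0.780). The fall rests on 1 of 3 probe sets, and the brighter pair differed by -0.04 and 0.08.

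Psen2, a catalytic subunit of the membrane protease gamma-secretase, stood between 8.35 and 8.53 in vehicle and between 8.02 and 8.26 in treated arrays, and fell by 0.30 (adjusted p = 0.0290), with vehicle 1.23-fold higher. Its partner subunits Ncstn, Aph1a and Psenen differed by -0.00, 0.01 and 0.04. Gprc5c, an orphan receptor of the family that retinoic acid induces, stood between 8.31 and 8.59 in vehicle and between 7.83 and 8.20 in treated arrays, and fell by 0.37 (adjusted p = 0.0435), with vehicle 1.29-fold higher. Tia1, an RNA-binding protein of stress granules, fell by 0.36 (adjusted p = 0.0370) at a level of 5.23 in vehicle, which is below the median of all values on the arrays, 6.1, and its other probe set differed by 0.07.

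Among the rises, Dpt was the largest in which the groups did not overlap. Dpt encodes dermatopontin, a protein of the extracellular matrix that binds decorin. The brighter probe set read 11.99, 12.09, 12.26, 11.79 and 12.40 in vehicle, 12.86, 12.83, 12.82, 12.86 and 12.98 at 10 mg/kg, and 12.52, 12.84, 13.03, 12.52 and 12.43 at 30 mg/kg. The 10 mg/kg arrays lay close together, whereas the lowest 30 mg/kg array stood only 0.03 above the highest vehicle array. Dpt rose by 0.66 (0.43 to 0.89, adjusted p = 0.0290), or 1.58-fold, and its other probe set rose by 0.60 (adjusted p = 0.0370). The rise was not shared by the matrix genes around it. Of 19 stellate cell and matrix markers measured, Dpt was the only call (0.0352% of all genes were called higher). In the list 13 had a lower treated mean and the median was -0.17. Dcn, which encodes decorin, differed by -0.09, Lum, lumican, by 0.21, and the collagens Col3a1 and Col1a1 by -0.24 and 0.00.

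Tgoln2, a membrane protein that cycles between the trans-Golgi network and the cell surface, read 10.64, 10.78, 10.84, 10.73 and 10.86 in vehicle, 11.10, 11.49, 11.23, 11.47 and 11.23 at 10 mg/kg, and 11.19, 11.51, 11.13, 11.18 and 11.08 at 30 mg/kg. It rose by 0.49 (0.33 to 0.65, adjusted p = 0.0271), or 1.41-fold. Its other probe sets differed by 0.35 and 0.08 and were not called. None of the other 21 measured genes of the Golgi and secretory traffic was called, and their list's median was -0.03. Ptprv, a receptor-type tyrosine phosphatase, rose least, by 0.23 (0.15 to 0.32, adjusted p = 0.0415), or 1.17-fold. Its vehicle arrays spanned only 6.44 to 6.48 and its treated arrays 6.60 to 6.78.

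Fads1 and Dpt are the 2 of the 5 called risers whose promoters hold a CCAAT box, and both sequences are shown for comparison with those of the genes that fell (RefSeq, GRCr8). Fads1 (chr1:216252442-216252741, plus strand) has it at -121, and Dpt (chr13:79656091-79656390, plus strand) has 2, at -127 and -71, in capitals.
Fads1: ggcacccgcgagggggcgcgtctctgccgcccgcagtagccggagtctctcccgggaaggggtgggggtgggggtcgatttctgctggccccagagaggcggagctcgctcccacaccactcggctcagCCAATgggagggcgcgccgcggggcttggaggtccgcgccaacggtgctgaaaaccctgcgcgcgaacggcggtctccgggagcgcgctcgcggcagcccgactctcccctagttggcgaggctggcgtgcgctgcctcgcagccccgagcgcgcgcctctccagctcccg
Dpt: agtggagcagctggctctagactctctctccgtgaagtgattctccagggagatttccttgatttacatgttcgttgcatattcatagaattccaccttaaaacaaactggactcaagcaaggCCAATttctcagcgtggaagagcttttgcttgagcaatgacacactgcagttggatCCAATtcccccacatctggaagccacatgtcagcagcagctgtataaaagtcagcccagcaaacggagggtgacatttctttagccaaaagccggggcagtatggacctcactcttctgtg

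Transcripts of fatty acid synthesis and desaturation were the list with the highest median in the pooled comparison. Of 19 measured members 17 had a higher treated mean, 13 had an unadjusted limma p below 0.05 and all of these 13 were higher, where 6.36% of all genes were higher at that p. Scd and Fads1 were called, 2 of 19, where 0.0352% of all genes were called higher. The list's median log2 difference was 0.61, against -0.0012 over all genes. The members were chosen with earlier results of these data known, so these counts are a description.

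Fads1, a desaturase of polyunsaturated fatty acids, was the member in which no arrays overlapped. It read 13.28, 13.24, 13.38, 13.16 and 13.36 in vehicle, 13.61, 13.76, 13.70, 13.75 and 13.71 at 10 mg/kg, and 13.60, 13.64, 13.75, 13.46 and 13.48 at 30 mg/kg. Fads1 rose by 0.36 (0.24 to 0.49, adjusted p = 0.0290), or 1.29-fold. Its neighbour in the same pathway and genomic cluster, Fads2, differed by 0.63 and was not called (adjusted p = 0.0929).

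Scd, the stearoyl-CoA desaturase that makes monounsaturated fatty acids, had the largest rise of any called gene and also the widest spread. It read 6.82, 7.44, 8.94, 7.16 and 11.71 in vehicle, 12.16, 12.22, 12.62, 13.57 and 12.89 at 10 mg/kg, and 11.48, 14.13, 13.13, 11.84 and 10.77 at 30 mg/kg. Vehicle sample 5 stood above 2 of the 10 treated arrays, and the other vehicle arrays stood below all of them. Scd rose by 4.07 (2.65 to 5.48, adjusted p = 0.0290), or 16.8-fold. Without vehicle sample 5 it was 29.7-fold higher. Its call was kept in 5 of the 15 fits with 1 array left out, in which the adjusted p ran from 0.00105 to 0.127.

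Both genes of the inhibited enzyme were higher on average without passing the test. Acaca read 9.03, 8.96, 9.18, 8.81 and 9.74 in vehicle, 10.05, 9.76, 10.20, 10.48 and 10.21 at 10 mg/kg, and 9.87, 10.93, 10.30, 9.89 and 9.40 at 30 mg/kg, a 1.95-fold difference (adjusted p = 0.0765). Acacb read 6.88, 6.70, 6.79, 5.91 and 7.43 in vehicle, 8.03, 7.86, 7.68, 7.42 and 7.76 at 10 mg/kg, and 7.56, 7.97, 7.97, 7.44 and 7.42 at 30 mg/kg, a 1.96-fold difference (adjusted p = 0.0502). In Acacb the highest vehicle array, sample 5, exceeded the lowest treated array by 0.01. Both were called without vehicle sample 5 (adjusted p = 0.0268 for Acaca and 0.00973 for Acacb) and without 30 mg/kg sample 5 (0.0253 and 0.0294), and Acacb also without 30 mg/kg sample 4 (0.0447). Over these and the other fits with 1 array left out or another setting, Acaca kept a log2 difference between 0.87 and 1.11 and Acacb between 0.76 and 1.14.

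The same arrays marked the edges of many lipogenic genes. Vehicle sample 5 was the highest vehicle array in 10 of the 19 members, 30 mg/kg sample 2 the highest treated array in 8, and 30 mg/kg sample 5 the lowest treated array in 10. Fasn, the fatty acid synthase, was 2.64-fold higher in treated arrays (adjusted p = 0.101), Me1, the malic enzyme that supplies NADPH, 2.39-fold (0.0911), and Acly, the ATP citrate lyase that makes cytosolic acetyl-CoA, 2.04-fold (0.0999). Without vehicle sample 5, Acaca, Acacb, Fasn, Acly, Me1, Scd and Fads1 were called, 7 of the 19 members. Leaving out 30 mg/kg sample 5 also gave 7 called members, and leaving out sample 4 of that dose gave 3. Of the 19, 1 was called when sample 3 of vehicle or of 30 mg/kg was dropped. No member was called once samples 1, 2 or 4 of vehicle, any of samples 2 to 5 of 10 mg/kg, or sample 2 of 30 mg/kg had been dropped.

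**Figure D2:**
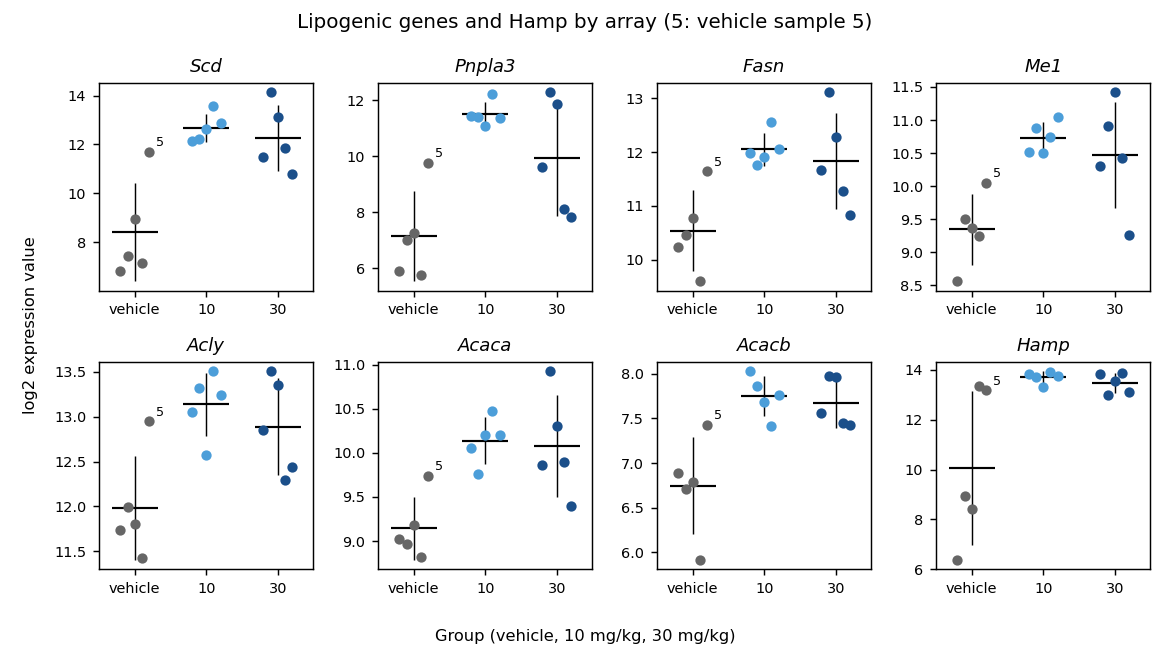
Log2 expression value (y axis, a separate range for each gene) of Scd, Pnpla3, Fasn, Me1, Acly, Acaca, Acacb and Hamp by group (x axis: vehicle, 10 mg/kg, 30 mg/kg; n = 5 each), with points for arrays, horizontal lines for group means and vertical lines for 1 SD. The number 5 marks vehicle sample 5, which stood at 11.71 in Scd and at 9.78 in Pnpla3, the highest vehicle array in both.

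Of 24 measured genes for triglyceride synthesis, lipid droplets and lipases, none was called (limma). At an unadjusted p below 0.05, where 6.36% of all genes were higher and 9.06% lower, 9 of the 24 were higher and 1 was lower. Pnpla3, a lipase of lipid droplets, had the largest difference, 3.58 (12-fold, adjusted p = 0.0911), and its 30 mg/kg arrays ran from 7.82 to 12.29, reaching below vehicle sample 5 at 9.78. Plin3, a coat protein of droplets, differed by 0.82 (adjusted p = 0.0911) and G0s2, an inhibitor of triglyceride lipase, by -0.70. Dbi and Tm6sf2, which are not members of this list, did not overlap between the groups. Dbi, the acyl-CoA-binding protein that carries newly made acyl-CoA, ranged from 13.18 to 13.50 in vehicle and from 13.51 to 13.91 in treated arrays. Its 1.30-fold difference was just outside the threshold (limma adjusted p = 0.0521). Tm6sf2, a membrane protein needed to lipidate very low density lipoprotein, ranged from 8.83 to 9.20 in vehicle and from 9.28 to 9.81 in treated arrays (1.24-fold, adjusted p = 0.135). In contrast, the 20 measured genes of fatty acid oxidation and ketogenesis held no member at an unadjusted p below 0.05 and a median of 0.02.

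The paired sterol exporters Abcg5 and Abcg8, which together form the transporter that moves cholesterol and plant sterols into bile, lay lower in every treated array. Abcg5 read 9.29, 9.83, 9.02, 8.97 and 8.87 in vehicle, 8.19, 7.33, 8.28, 7.71 and 8.26 at 10 mg/kg, and 7.67, 6.92, 8.34, 8.38 and 8.57 at 30 mg/kg. Abcg8 read 7.34, 8.08, 7.55, 7.23 and 7.04 in vehicle, 6.12, 5.30, 6.66, 6.08 and 6.20 at 10 mg/kg, and 6.20, 4.72, 6.41, 6.79 and 6.80 at 30 mg/kg. In both genes vehicle sample 2 was the highest of all arrays and 30 mg/kg sample 2 the lowest. Vehicle was 2.34-fold higher in Abcg5 and 2.5-fold higher in Abcg8, yet neither was called (limma adjusted p = 0.0660 and 0.0911), and Abcg5 was called without vehicle sample 5 (adjusted p = 0.0452) and without 30 mg/kg sample 5 (0.0294). Abca1, the exporter of cholesterol to high density lipoprotein, went the other way in its brightest probe set, by 1.34 (adjusted p = 0.109). Another probe set differed by 1.25 (2.38-fold, adjusted p = 0.107), while the remaining pair differed by -0.10 and -0.02. In the brightest, vehicle samples 1 and 5, at 10.70 and 10.47, stood within the treated range of 10.37 to 11.17. The other vehicle arrays lay between 8.37 and 8.87. Without vehicle sample 5 both of the higher probe sets were called (limma adjusted p = 0.0433 and 0.0498). Of the 11 sterol export and LXR target genes measured, none was called and the median was -0.22. In this list 5 were lower and 2 higher at an unadjusted p below 0.05, where 9.06% of all genes were lower and 6.36% higher. Cholesterol synthesis, with 17 measured members and a median of -0.01, had 1 member at that p, which was lower.

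Abcg5 and Abcg8 lie head to head on chromosome 6, and their promoter windows are shown by that of Abcg5 because they are nearly the same stretch of DNA read from opposite strands. The start sites are 206 bases apart and the windows share 295 of 300 bases (RefSeq, GRCr8, chr6:15717686-15717985 for Abcg5, plus strand, and chr6:15717681-15717980 for Abcg8, minus strand). Capitals mark the single CCAAT box, read here on the reverse strand, at -13 from the start of Abcg5 and -197 from that of Abcg8.
Abcg5: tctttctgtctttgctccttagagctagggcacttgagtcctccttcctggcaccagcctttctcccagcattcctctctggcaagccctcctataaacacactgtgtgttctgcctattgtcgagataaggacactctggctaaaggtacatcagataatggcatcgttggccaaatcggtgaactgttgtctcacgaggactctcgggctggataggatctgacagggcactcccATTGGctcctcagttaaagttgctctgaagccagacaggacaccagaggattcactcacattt

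Called or not, 89 named probe sets (0.427%) of 87 genes did not overlap between treated and vehicle arrays. In treated arrays 32 were higher (0.154%) and 57 lower (0.274%), and 13 of the 89 were called probe sets. Of the 89, 70 passed a filter on low values, in which the fifth highest value of a probe set must exceed the median of all values. Past that filter the lower genes outnumbered the higher by 51 to 19, and below it 13 were higher and 6 lower. The excess of lower probe sets was not kept under quantile normalisation, which gave 41 higher and 37 lower. Most separations were small: 80 of the 89 differed by less than 0.5 and 5 by at least 2-fold (both Tfrc probe sets, Retsat, Abcg8 and Abcg5). Retsat, the retinol saturase, fell outside the calls in spite of a 2.51-fold higher vehicle level (adjusted p = 0.0929), since its treated arrays ran from 10.78 to 12.85 against 13.04 to 13.37 in vehicle. Just inside the rule stood Cenpl and Xrcc6, with gaps of 4.97e-05 and 4.36e-04 between the groups, and just outside it Pla2g4e and Ddx23, with gaps of -5.40e-05 and -0.00204, a negative gap being an overlap. Conversely, 42 probe sets differed at least 2-fold with an unadjusted p below 0.05, 25 higher and 17 lower, and 3 of them were called (both of Tfrc, and Scd).

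A few of the smaller non-overlapping genes are named here, some of them with known roles in lipid and membrane chemistry. They were picked after their values were seen and say nothing of that chemistry as a whole. Phyh, the peroxisomal hydroxylase that begins the breakdown of phytanic acid, lay between 13.44 and 13.65 in vehicle and between 13.20 and 13.39 in treated arrays (vehicle 1.17-fold higher, adjusted p = 0.0729). These values are from its dimmer probe set, and the brighter one overlapped between the groups and differed by -0.15 (adjusted p = 0.158). Gpx4, the peroxidase that reduces lipid hydroperoxides in membranes, differed by -0.19 (adjusted p = 0.107), while its dimmer probe set differed by -0.01. Smpd1, the acid sphingomyelinase, differed by -0.12, the smallest size of the 89. Rictor, a subunit of the kinase complex mTORC2 downstream of insulin, differed by -0.19, and Mtch2, an outer membrane protein of mitochondria, by 0.13. None of these was called.

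No probe set passed the test between the doses. Between 30 mg/kg and 10 mg/kg, limma called 0 of 20826 probe sets (0%), the lowest adjusted p was 0.780, and 1309 (6.29%) had an unadjusted p below 0.05. For Tfrc the 30 mg/kg minus 10 mg/kg difference was -0.03 (95% interval -0.42 to 0.37). The corresponding intervals were -0.12 to 0.56 for Slc13a3, -0.44 to 0.21 for Slc13a4, -0.45 to 0.05 for Dpt, -0.25 to 0.01 for Fads1 and -2.10 to 1.27 for Scd. A p that misses the threshold does not show that the doses act alike, and for Scd and Pnpla3 (-3.36 to 0.23) the intervals are wide. At an unadjusted p below 0.05, 7 of the 89 non-overlapping probe sets differed between doses, among them Masp2 and Rictor, and 0 did after adjustment. In fatty acid synthesis and desaturation 18 of 19 members had a lower mean at 30 mg/kg than at 10 mg/kg, where 46.7% of all named probe sets did, but none of the 19 passed the test.

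**Figure D3:**
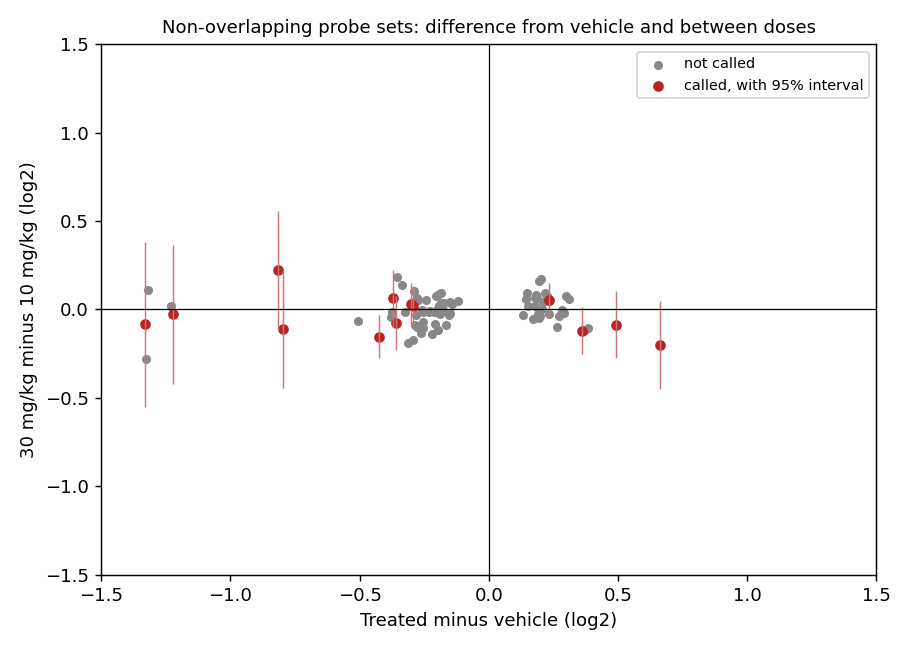
Difference between treated and vehicle means (x axis, log2) against the difference between 30 mg/kg and 10 mg/kg means (y axis, log2) for the 89 probe sets in which treated and vehicle arrays did not overlap, with called probe sets in red and their 95% intervals for the dose difference as vertical lines. The probe sets were chosen by their separation on the x axis, so the sizes on the axes are not compared; Tfrc lies at -1.22 on the x axis and -0.03 on the y axis, and Masp2 at -0.42 and -0.15.

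Each dose is also given against vehicle, as values only, since both share the 5 vehicle arrays and the called genes were chosen on both doses together. Tfrc differed by -1.21 at 10 mg/kg and -1.24 at 30 mg/kg, Slc13a3 by -0.93 and -0.71, Slc13a4 by -0.74 and -0.85 and Masp2 by -0.35 and -0.50. Gprc5c differed by -0.40 and -0.34, Tia1 by -0.32 and -0.40, Mpst by -0.30 and -0.28 and Psen2 by -0.32 and -0.28. Dpt differed by 0.76 and 0.56, Tgoln2 by 0.53 and 0.45, Fads1 by 0.42 and 0.30, Ptprv by 0.21 and 0.26 and Scd by 4.28 and 3.86. Pnpla3, which was not called, differed by 4.37 and 2.80. Mtmr7, a phosphoinositide phosphatase, differed by 1.90 and 1.34 and overlapped between the groups (pooled difference 1.62, limma adjusted p = 0.0502). It was called without vehicle sample 5 (adjusted p = 0.0206), 30 mg/kg sample 4 (0.0194) or 30 mg/kg sample 5 (0.0253). None of the other 20 measured phosphoinositide phosphatases was called, and 15 of the 21 had a lower treated mean.

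Markers of the cells that line the sinusoids were lower on average in treated livers. Of 13 measured markers of Kupffer cells and macrophages, 12 had a lower treated mean, 9 were lower at an unadjusted p below 0.05 (9.06% of all genes were), 0 were called (limma) and the median difference was -0.36. Their summed intensity, on the linear scale in units of 1000, ran from 8.16 to 11.6 in vehicle, from 6.91 to 9.40 at 10 mg/kg and from 6.79 to 10.5 at 30 mg/kg, so the groups overlapped. Clec4f, a lectin of Kupffer cells, differed by -0.41, Cd14, the receptor for lipopolysaccharide, by -0.64 and Cd68 by -0.47, and Lyz2 was the exception at 0.19. All 11 measured endothelial markers had a lower treated mean, 6 of them at an unadjusted p below 0.05, with a median of -0.24 and sums from 5.61 to 6.89 in vehicle, from 4.56 to 6.1 at 10 mg/kg and from 4.77 to 6.18 at 30 mg/kg. Emcn, the endothelial sialomucin endomucin, did not overlap between the groups, with 7.28 to 7.40 in vehicle and 6.92 to 7.27 in treated arrays (vehicle 1.19-fold higher, adjusted p = 0.113).

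A few genes are named from the 57 non-overlapping probe sets that were lower in treated arrays. Col4a1, a basement membrane collagen, differed by -0.34 (vehicle 1.26-fold higher, adjusted p = 0.0911) and Nckap1l, a regulator of actin in blood cells, by -0.32 (0.0765). The chemokine Cxcl12 differed by -0.26 (0.171) and the endothelial receptor Gpr182 by -0.18 (0.192). The Gpr182 value is from its dimmer probe set, and the brighter one overlapped between the groups and differed by -0.21 (0.223). Other probe sets of Col4a1, Nckap1l and Cxcl12 also had lower treated means but overlapped. These genes were picked after their values were seen, none was called, and they are no evidence on any cell type. Hepatocyte markers had a median of 0.01. Every one of the 13 macrophage and 11 endothelial markers passed the filter on low values, and none can be at 0 on this log2 scale. Markers of pancreas and fat were mostly dim, with 1 of 8 and 1 of 5 past the filter, and 5 of 5 blood markers had a lower treated mean, with sums from 14.3 to 28.4 in vehicle, from 10.6 to 23.3 at 10 mg/kg and from 11.2 to 22.7 at 30 mg/kg. Tfrc is abundant in erythroid precursors and macrophages as well as in hepatocytes, and the part of these markers in its fall was not tested.

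**Figure D4:**
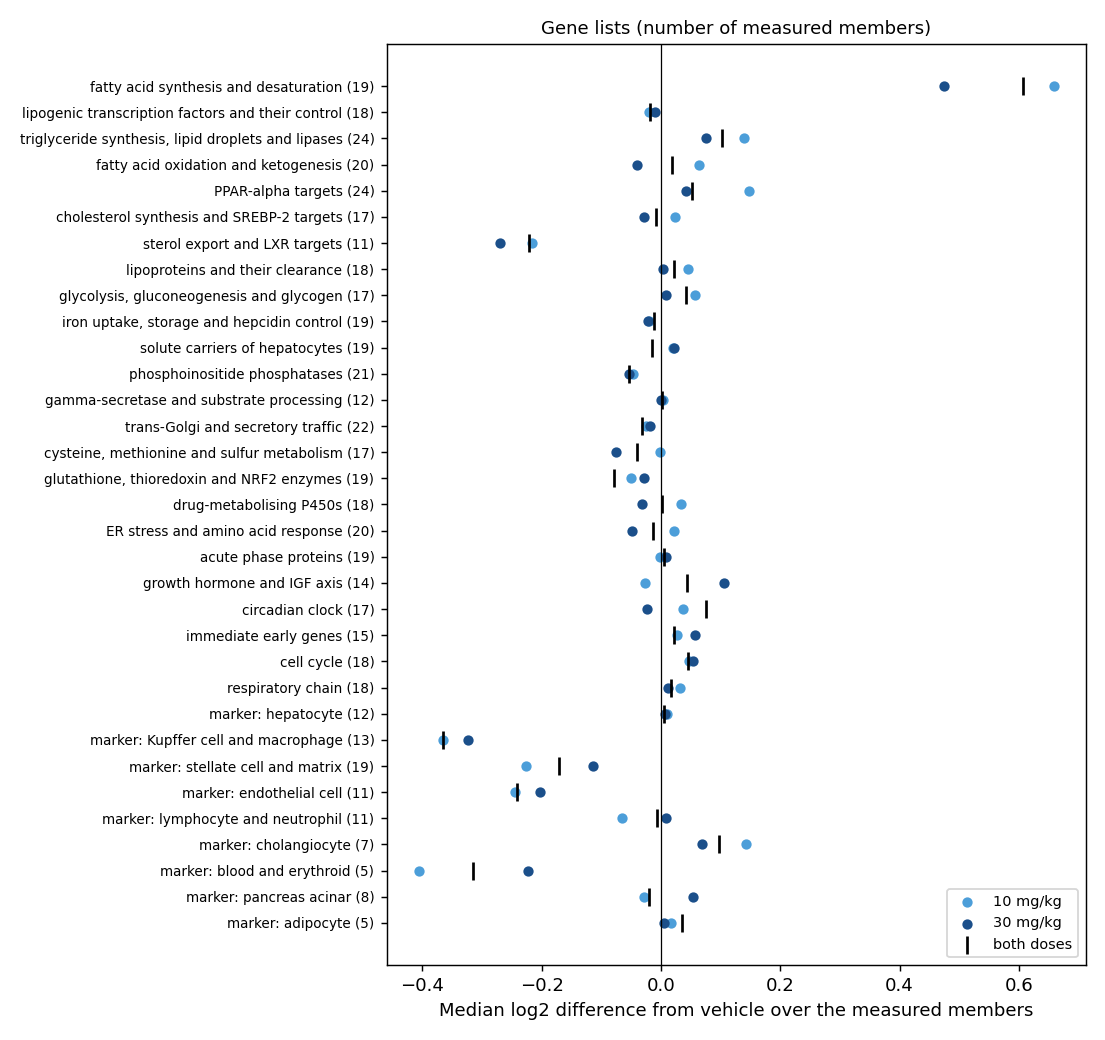
Median log2 difference from vehicle (x axis) over the measured members of each gene list (y axis, number of members in brackets), for 10 mg/kg (light points), 30 mg/kg (dark points) and both doses together (black bars); both doses share the vehicle arrays. Fatty acid synthesis stood farthest right at 0.61 for both doses together, and the Kupffer cell list farthest left at -0.36.

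Most of the other lists held few calls. The lists of lipogenic transcription factors, PPAR-alpha targets, lipoproteins, glycolysis and gluconeogenesis, glutathione and NRF2 enzymes, P450 enzymes, ER stress, acute phase proteins, growth hormone axis, clock, immediate early genes, cell cycle and respiratory chain held none by limma. Each had between 1 and 7 members at an unadjusted p below 0.05, where 6.36% of all genes were higher and 9.06% lower. The medians of these lists lay between -0.08, for glutathione and NRF2 enzymes, and 0.08, for the clock. Among acute phase proteins, A2m stood at 11.83 in vehicle sample 1 and between 4.89 and 8.46 in all other arrays, and Lbp, which binds lipopolysaccharide, was also highest there at 12.02. Vehicle sample 1, which also had the highest Tfrc value, correlated least with its own group (mean r 0.991, where the other arrays reached up to 0.994). Without it 5 probe sets were called, all of them lower in treated arrays and both of Tfrc among them.

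Short motifs were counted in the RefSeq promoters (GRCr8, both strands, 300 bases) of 11700 measured genes as a description. TCACNCCAC, a form of the sterol regulatory element, was found in 1.11% of all promoters, in 2 of the 29 promoters of genes higher in all treated arrays, in 2 of the 50 of genes lower in all of them, and in 0 of 16 for fatty acid synthesis. CACGTG, the E-box, was found in 8.94% of all, 2 of 29 higher and 4 of 50 lower, the latter including Mpst and Slc13a3. CCAAT was found in 37.3% of all, 48.3% of the higher and 44% of the lower, and in 56.3% for fatty acid synthesis and 84.6% for cholesterol synthesis. The DR4 element, a direct repeat that LXR binds, was found in 0 of 11700 in this exact form. A match is a run of letters in this window only, and an absent one says nothing of the factor.

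The number of calls rested on single arrays. Leaving out vehicle sample 5 gave 77 calls in place of 15 and leaving out 30 mg/kg sample 5 gave 49, with 25 without 30 mg/kg sample 4. It fell to 5 without vehicle sample 1, 4 without vehicle sample 2, 2 without vehicle sample 4, 6 without 10 mg/kg sample 2, 3 without 10 mg/kg sample 3, 4 or 5, and 5 without 30 mg/kg sample 2. All 15 calls were among the 77. Of the 15 fits, Masp2 kept its call in 14, losing it without vehicle sample 4 (adjusted p = 0.0697), Mpst in 10, Tgoln2 in 9, Fads1, Psen2, Slc13a4 and Dpt in 7, Slc13a3 in 6, and Scd, Gprc5c, Ptprv and Tia1 in 5. Non-overlapping probe sets rose from 89 to 260 without vehicle sample 5, 245 without vehicle sample 1, 153, 147 and 144 without vehicle samples 2, 3 and 4, and 155 without 10 mg/kg sample 1. Leaving out any array can only add to this count, and vehicle samples 5 and 1 added the most.

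**Figure D5:**
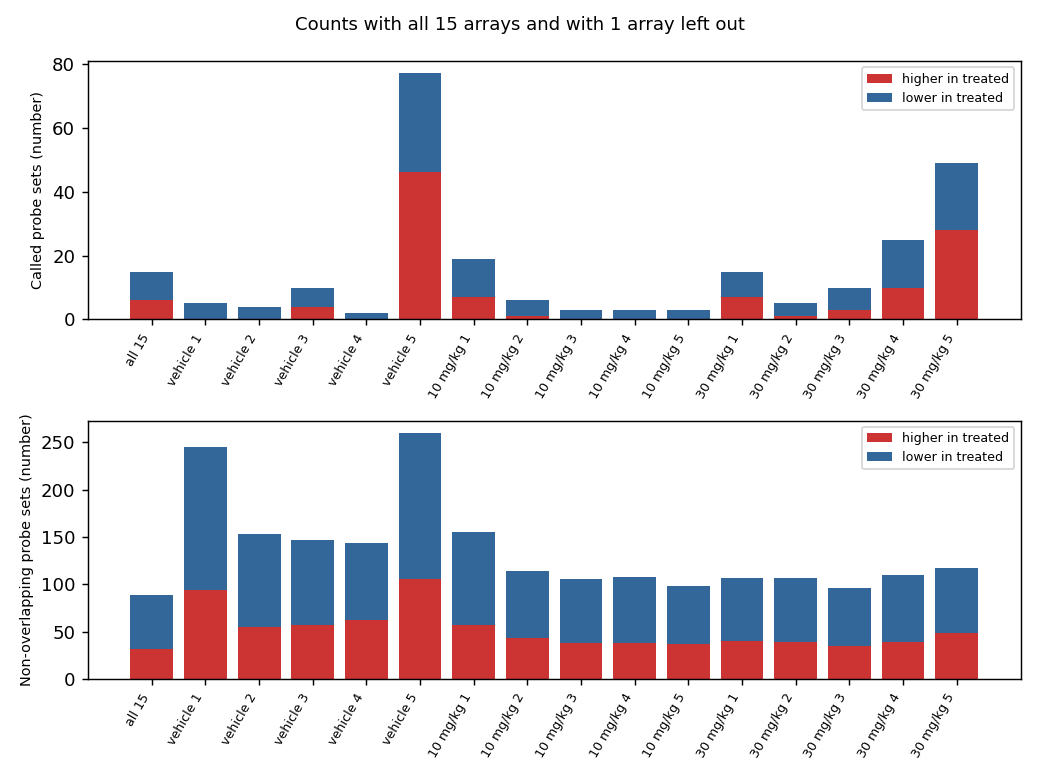
Number of called probe sets (upper panel) and of non-overlapping probe sets (lower panel) on the y axes with all 15 arrays and with each array left out (x axis), higher in treated arrays in red and lower in blue. The fewest calls, 2, came when vehicle sample 4 was dropped and the most, 77, when vehicle sample 5 was, and non-overlapping probe sets from 89 with all arrays to 260 without vehicle sample 5.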

How the data were processed

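Values in the deposited table are on a log2 scale, 1 per probe set and array, and the nearly equal array medians show that the authors put the arrays on a common scale. The submitters' processing notes name RMA, GCRMA 2.12.1 and limma 2.14.7 but assign no step to any, and the step that RMA or GCRMA had in making the table is not stated there. Between-array normalisation hides a change shared by most genes and can understate changes of dim genes. No batch is given in the labels, and the number of arrays limits the precision.

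Of 31099 probe sets, 57 controls were left out, and 20826 carried 1 gene symbol in the platform annotation, 436 several and 9780 none. The last 2 kinds were not named. A current RefSeq entry was found for 20758. Groups were taken from the sample titles, and 0 columns of values belonged to no sample of the series.

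The 10 treated arrays were fitted against the 5 vehicle arrays with limma 3.58.1 (lmFit and eBayes, R 4.3.3) over all 20826 probe sets without a filter. Benjamini-Hochberg adjustment ran across this whole table, with calls at 0.05. The doses were compared in a fit of 3 group means. Differences are treated minus vehicle in log2, and folds are powers of 2 of them. For lists, the brightest probe set of each gene was used. The fit was also run on simulated data with independent noise, which held no differences shared by a whole array. That run says nothing of how the calls depend on single arrays. Alternatives were a filter on low values, 1 probe set per gene, all probe sets, quantile normalisation, centring, eBayes with trend and robust options, 3 group means, the replicate number as a block and leaving out each array.

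The genes named were up to 12 called, non-overlapping genes per direction past the filter, filled up to 8 by non-overlapping genes without a call, with Acaca, Acacb and, from each list, at most 4 called members added. Any other gene was picked with its values in view. The comparison, its members and the lists were chosen with earlier results of these data known.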

Additional observations from a re-analysis of the deposited data

Results flagged for a closer look

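In 219 groups of 5 arrays (73 named genes in 3 groups), 15 held an array far from the other 4 by Dixon's test, where chance gives about 1 in 20 groups. Of these, 4 were in vehicle, 3 at 10 mg/kg and 8 at 30 mg/kg. Sample 2 at 30 mg/kg stood apart in 5 of the genes: it was highest in Tgoln2 at 11.51 (others 11.08 to 11.19), in Tm6sf2 at 9.81 (9.28 to 9.39) and in Ggcx at 9.97 (9.75 to 9.80), and lowest in Abcg8 at 4.72 (6.20 to 6.80) and in Gpr182 at 6.32 (6.50 to 6.57). Other 30 mg/kg arrays stood apart in Elovl5, where sample 4 was lowest at 13.29 (13.53 to 13.59), in Gsta1, where sample 1 was highest at 13.60 (13.45 to 13.47), and in Dele1, where sample 3 was lowest at 8.83 (9.18 to 9.26).

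At 10 mg/kg, sample 5 was highest in Dpt at 12.98 (others 12.82 to 12.86), sample 3 lowest in Plin3 at 8.86 (9.19 to 9.27) and sample 4 lowest in Rictor at 8.15 (8.32 to 8.37). In vehicle, sample 1 was highest in A2m at 11.83 (others 7.73 to 8.39) and in Cxcl12 at 13.19 (12.86 to 12.90), sample 3 lowest in Cdk10 at 6.09 (6.44 to 6.51) and sample 4 highest in Eif4ebp3 at 9.57 (9.13 to 9.24).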

How the results depend on the processing

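The 15 calls (40% higher) became 26 with the filter on low values, 14 of them shared, and 5 with the replicate number as a block, 4 of them shared. The numbers did not pair the samples: correlations of same-numbered arrays ran from -0.0714 to 0.157, and 2, 1 and 1 of 5 arrays correlated best with their own number in the 3 pairs of groups. With 1 array left out, calls ran from 2 to 77 and non-overlapping probe sets from 96 to 260. Non-overlapping probe sets were 58 with 1 probe set per gene past the filter. Quantile normalisation gave 15 calls, 12 of them shared, of which 9 were higher and 6 lower, in place of 6 and 9. It left Slc13a3, Psen2 and Gprc5c uncalled (limma adjusted p = 0.0549, 0.0594 and 0.0640). Non-overlapping probe sets were then 41 higher and 37 lower, in place of 32 and 57. The other settings gave 16 to 21 calls and 70 to 115 non-overlapping probe sets, with 0 calls between doses in all of them. Among these, eBayes with trend and robust options left Scd (limma adjusted p = 0.0829) and Ptprv (0.0684) uncalled. The fit of 3 group means left Gprc5c uncalled (limma adjusted p = 0.0514). No named gene changed sign, but several list medians near 0 did. Cholesterol synthesis ran from -0.11 to 0.05, the clock from -0.02 to 0.11 and adipocyte markers from -0.26 to 0.08. The medians of fatty acid synthesis (0.45 to 0.70), Kupffer cell markers (-0.43 to -0.29) and endothelial markers (-0.26 to -0.19) kept their sign. The cause of these changes was not tested. The values carry no depth, and probe sets below the median intensity limit what can be seen of dim genes.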

Other observations

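Of 4 genes of sulfate handling looked at outside the calls, 3 had a lower and 1 a higher treated mean, and none was called. Slc26a1, an exchanger that carries sulfate across the hepatocyte membrane, stood between 11.25 and 11.61 in vehicle and between 11.04 and 11.39 in treated arrays (vehicle 1.16-fold higher, limma adjusted p = 0.201). Papss2, which makes the activated sulfate donor, differed by -0.31 (adjusted p = 0.260) and Sult1a1, a sulfotransferase for phenols, by -0.15 (0.303). The groups overlapped in all 3. Suox, the sulfite oxidase that makes sulfate, differed by 0.06. The 4 were chosen after their values were seen, so they say nothing of sulfate handling as a whole.

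Both enzymes of the vitamin K cycle that activates clotting factors had higher means. Vkorc1, the epoxide reductase that warfarin blocks, read 12.37, 12.31, 12.43, 12.22 and 12.36 in vehicle, 12.54, 12.61, 12.66, 12.73 and 12.58 at 10 mg/kg, and 12.58, 12.85, 12.69, 12.50 and 12.48 at 30 mg/kg. The groups did not overlap and treated arrays were 1.22-fold higher (limma adjusted p = 0.0765). Ggcx, the carboxylase that uses the reduced vitamin, was 1.19-fold higher (adjusted p = 0.0924), and vehicle sample 5 at 9.79 overlapped with the treated arrays. Without vehicle sample 5, Ggcx was called and Vkorc1 was not. Cpn1, a carboxypeptidase of plasma, did not overlap either, with 11.18 to 11.38 in vehicle and 10.86 to 11.17 in treated arrays (vehicle 1.18-fold higher, adjusted p = 0.0911). Vkorc1, Ggcx and Cpn1 were chosen after their values were seen, so they say nothing of the vitamin K cycle or of clotting as a whole.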
